A study of Mus musculus with 19 samples.

Results

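The genes described here are 10 genes widely used as astrocyte markers, Gfap, Aqp4, Aldoc, Slc1a2, Slc1a3, Gja1, Gjb6, S100b, Aldh1l1 and Sparcl1, followed across the depth of the mouse primary somatosensory cortex. They were chosen by name, and all 10 were found among the 24130 Ensembl genes that 1 or more of the libraries listed and among the 11409 genes measured precisely enough to be compared between segments, termed classifiable (widest deposited 95% interval at most 50% of the mean level). Polyadenylated RNA was sequenced from 6 adjacent laminar segments cut by hand under a dissecting microscope from adult wild-type mice, all male, 56 days old and of the C57BL/6J strain. Segment A held mostly layers 1 to 3, B mostly layer 4, C and D mostly the upper and lower parts of layer 5, E mostly layer 6, and F mostly layer 6b. A, C, D, E and F were each 1 library made from tissue pooled over 8 mice, and segment B was split by litter into libraries B1 and B2, each pooled over 4 mice. No library received a treatment, and all carried the same genotype. Because the segments were pooled from the same animals, only B1 against B2 gave a spread between separate mice, which also holds differences between the libraries. The boundaries of the segments followed the layers only approximately. The dorsal and lateral cortex samples of the same series were not analysed here.

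Astrocytes are the glial cells that take up glutamate and potassium released by neurons, supply neurons with metabolites, couple to each other through gap junctions and wrap blood vessels and the brain surface with endfeet. Neuroanatomy distinguishes protoplasmic astrocytes, which fill the grey matter, from fibrous astrocytes of the white matter and from the astrocytes whose endfeet form the glial limiting membrane under the pia. The filament protein encoded by Gfap is classically abundant in fibrous and pial astrocytes and scarce in protoplasmic ones, whereas glutamate transporters are found throughout the grey matter.

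Levels are in FPKM (fragments per kilobase of exon model, scaled to sequencing depth), which allow for transcript length and can be set side by side between genes. The deposited FPKM and coverage imply 31300000 to 74900000 mapped fragments per library. Genes of the mitochondrial genome took 21.8% of all FPKM in A and 18.2% in B2, against 5.03% to 9.79% in the other 5 libraries. Segment A stood apart in a further respect. Setting the libraries to a common median gene required its values to be multiplied by 1.31, against factors of 0.87 to 1.06 elsewhere, and 56.0% of classifiable genes were lowest in A. All 10 astrocyte genes were listed in every library, at 4.42 FPKM or more, and together they summed to 1105 FPKM in A and 1279 to 1539 FPKM elsewhere. In bulk tissue, a segment with fewer cells of a type and a segment with less RNA per cell cannot be told apart.

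Gfap, which encodes the intermediate filament protein of the astrocyte cytoskeleton, was the gene that varied most of the 10. It lies at chr11:102748650-102758445 on the minus strand (mm9) and was measured at 34.4 FPKM in A, 5.81 and 4.68 in B1 and B2, 4.42 and 8.09 in C and D, and 20.2 and 126 in E and F. Both ends of the cortex thus stood above the middle, with the deepest segment highest. The deposited 95% interval in F ran from 124.4 to 128.1 FPKM and in C from 4.04 to 4.79 FPKM. Segment F exceeded A by 3.67-fold, E by 6.26-fold and the mean of B1 and B2 by 24.1-fold. Segment A exceeded B by 6.56-fold. Between the highest and lowest segments, F and C, the level differed 28.6-fold, whereas the median of the other 9 genes was 2.11-fold and the largest among them, that of Aqp4, was 5.60-fold. F alone held 63.6% of the level of Gfap summed over the 6 segments, and A held 17.3%. With a constant of 0.1 FPKM added, 1.02% of the classifiable genes had a wider span across segments than Gfap.

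**Figure D1:**
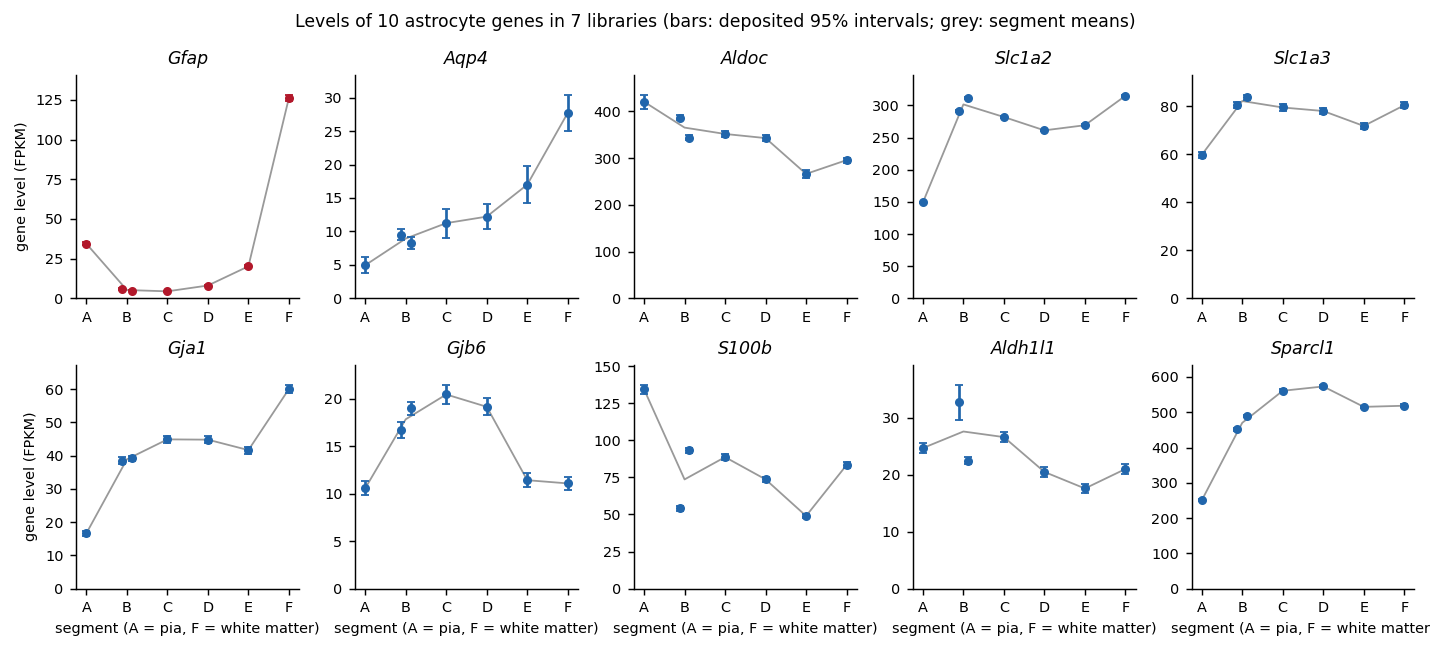
Level in FPKM (vertical axes, each from 0) of each of the 10 astrocyte genes in segments A to F (horizontal axes, pia to white matter). Points are the 7 libraries with B1 and B2 side by side, bars are the deposited 95% intervals and the grey line joins segment means. Gfap (red) falls from 34.4 in A to 4.42 in C and climbs to 126 in F, while Slc1a3 stays between 59.8 and 83.9.

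The trend across segments was tested in limma, on log2(FPKM + 0.1), with a straight-line term and a quadratic term. The straight-line term is the slope, in log2 units per segment, positive when higher toward the white matter. The quadratic term is positive when the profile curves upward. This occurs when both ends are higher than the middle, but also when a rise steepens with depth. The p-values were adjusted over all 11409 genes by the Benjamini-Hochberg method. This fit has 4 residual degrees of freedom, and its error measures scatter around a smooth curve through 7 pooled libraries. Gfap changed across segments (adjusted p = 0.00240), with a slope of 0.49 ± 0.08 (SE, adjusted p = 0.00522) and a quadratic term of 0.59 ± 0.06 (SE, adjusted p = 0.0176), on the limma scale. Its quadratic term ranked 28th of the 11409 genes, of which 2.0% had a positive quadratic term past the threshold of 0.05. The overall trend of Gfap passed the threshold when any 1 library was left out (limma adjusted p of 0.00457 to 0.0138). The quadratic term alone stayed positive, at 0.44 to 0.67, but its limma adjusted p rose above the threshold without A (0.167), B2 (0.0567), C (0.104), D (0.0771) or F (0.0628). Without F the slope was 0.61 (limma adjusted p = 0.101), and scaling to a common median gene left a slope of 0.39 and 2.45-fold between F and A.

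The sequence upstream of Gfap is shown because this gene departed most from the others, and that of Gja1 because it shared the rise into F without the high level in A. RefSeq promoter entries (GRCm38.p6) were examined for 8 of the 10 genes, 9 entries in all, and none for Aqp4 and Sparcl1. The printed windows run from 250 bases before to 30 bases after the annotated start, at chr11:102897171-102897450 (minus strand) for Gfap and chr10:56377050-56377329 (plus strand) for Gja1. Capitals mark matches to the STAT motif TTCNNNGAA or to the AP-1 motif TGANTCA. Both read the same on either strand and no match overlapped another.
Gfap: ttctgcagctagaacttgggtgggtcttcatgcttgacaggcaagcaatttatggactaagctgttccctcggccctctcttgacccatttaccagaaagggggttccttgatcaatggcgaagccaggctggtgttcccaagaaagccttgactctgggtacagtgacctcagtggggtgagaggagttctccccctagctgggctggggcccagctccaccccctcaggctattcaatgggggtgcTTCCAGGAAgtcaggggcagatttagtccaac
Gja1: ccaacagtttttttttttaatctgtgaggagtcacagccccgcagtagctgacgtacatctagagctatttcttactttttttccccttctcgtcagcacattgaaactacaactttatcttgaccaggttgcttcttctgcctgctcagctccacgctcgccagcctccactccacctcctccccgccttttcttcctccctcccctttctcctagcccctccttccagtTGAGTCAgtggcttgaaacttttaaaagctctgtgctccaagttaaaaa
The STAT motif was matched in 3 of the 9 entries, those of Gfap, Slc1a3 and the downstream of 2 entries of Aldoc, and in 7.83% of all 32851 promoter entries of the same length. The AP-1 motif was matched in 1 entry, that of Gja1, and in 7.46% of all entries. These matches describe the letters in the window and were not related to the levels by any test.

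Aqp4 encodes the water channel concentrated in astrocyte endfeet and lies at chr18:15551340-15562162 on the minus strand (mm9). Its level was 4.95 FPKM in A, 9.54 and 8.33 in B1 and B2, 11.2 and 12.2 in C and D, and 17.0 and 27.7 in E and F. The order of segments followed depth without exception, so that the deep end resembled that of Gfap while the superficial end was opposite. Aqp4 changed across segments with a slope of 0.42 ± 0.05 (SE, limma adjusted p of the trend = 0.00508), and its quadratic term was 0.00 ± 0.04 (SE). F exceeded E by 1.63-fold and A by 5.60-fold, and the latter was 3.74-fold after scaling to a common median gene. With GC correction the slope was 0.27. Between neighbours in this order, the intervals overlapped for D and C and for C and B. Its trend passed the threshold with every library left out in turn, although without F the slope of 0.31 did not (limma adjusted p = 0.132).

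Gja1 and Gjb6 encode the main connexins of astrocyte gap junctions. Gja1 (chr10:56097136-56110221, plus strand, mm9) measured 16.6 FPKM in A, 38.5 and 39.3 in B1 and B2, 44.9 and 44.8 in C and D, and 41.7 and 60.0 in E and F. It was lowest in A and highest in F, with a plateau between. Gjb6 (chr14:57742141-57752103, minus strand, mm9) measured 10.6 FPKM in A, 16.7 and 19.0 in B1 and B2, 20.4 and 19.1 in C and D, and 11.4 and 11.1 in E and F. This connexin gene was highest in the middle of the cortex and low at both ends, the opposite of Gfap. After scaling to a common median gene its level in A was 13.8, above E (10.2) and F (9.67). Over the 7 libraries, which share depth and composition effects, the log2 levels of Gfap and Gjb6 had a Pearson correlation of -0.88, given as a description. Gja1 changed across segments with a slope of 0.25 ± 0.07 (SE, limma adjusted p of the trend = 0.0426). Gjb6 also passed the trend test (limma adjusted p = 0.0469), with a slope of -0.06 ± 0.05 and a quadratic term of -0.14 ± 0.04 (SE). That quadratic term alone did not pass (limma adjusted p = 0.0594). Both trend calls lay close to the threshold. Without A, B2, C or D the limma adjusted p was 0.229, 0.0560, 0.0865 and 0.0694 for Gja1 and 0.114, 0.0799, 0.139 and 0.116 for Gjb6, and without B1 that of Gjb6 was 0.0502. Gja1 also lost its call after scaling to a common median gene (limma adjusted p = 0.170), without mitochondrial genes (0.0890) and with GC correction (0.448). Its slope was 0.09 without A, 0.05 without F, 0.15 after scaling to a common median gene and 0.09 with GC correction. Gjb6 passed under these 3 scalings, and its quadratic term ran from -0.23 without F to -0.09 without A.

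**Figure D2:**
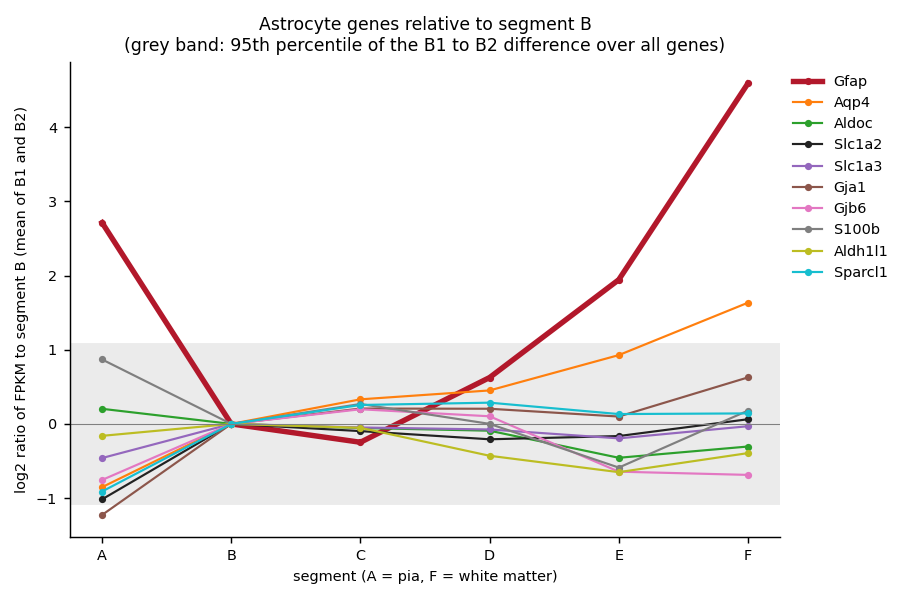
Log2 ratio of each gene's FPKM to its level in segment B, the mean of B1 and B2 (vertical axis), by segment from pia to white matter (horizontal axis). The grey band spans the 95th percentile of the absolute B1 to B2 difference over all classifiable genes, 1.07 in log2 units. Gfap (thick line) leaves the band in A, E and F, Aqp4 in F and Gja1 in A.

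Neither glutamate transporter gene passed the trend test. Slc1a2 (chr2:102498816-102630941, plus strand, mm9), which encodes the transporter responsible for most glutamate uptake in the forebrain, measured 149 FPKM in A, 291 and 312 in B1 and B2, 282 and 261 in C and D, and 269 and 315 in E and F. Its level in A was lower than in every other library, and those 6 lay within 261 to 315 FPKM. Slc1a3 (chr15:8584124-8660764, minus strand, mm9), the transporter gene also expressed by radial glia, measured 59.8 FPKM in A, 80.7 and 83.9 in B1 and B2, 79.6 and 78.1 in C and D, and 71.9 and 80.5 in E and F. The highest and lowest segments differed 1.38-fold for Slc1a3, the narrowest span of the 10 genes. The slopes were 0.11 ± 0.07 (SE, limma adjusted p of the trend = 0.240) for Slc1a2 and 0.03 ± 0.04 (SE, limma adjusted p = 0.539) for Slc1a3. Both slopes were negative without A (-0.05 and -0.04), without F (-0.03 and -0.05) and after a GC correction (-0.04 and -0.13), and that of Slc1a3 was also negative after scaling to a common median gene (-0.07). The pair had a Pearson correlation of 0.96 in log2 level over the 7 libraries, which share depth and composition effects. Both genes were lowest in A, as were 56.0% of all classifiable genes, and the correlation is given as a description.

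Aldoc, S100b and Aldh1l1 had slopes of the opposite sign to that of Aqp4, though none passed the trend test. Aldoc (chr11:78136470-78141283, plus strand, mm9) encodes the brain form of the glycolytic enzyme aldolase and measured 421 FPKM in A, 387 and 344 in B1 and B2, 352 and 343 in C and D, and 266 and 296 in E and F. Aldh1l1 (chr6:90500799-90549154, plus strand, mm9) encodes an enzyme of folate metabolism and measured 24.6 FPKM in A, 32.7 and 22.5 in B1 and B2, 26.6 and 20.5 in C and D, and 17.6 and 21.0 in E and F. Both were lowest in E, with deeper segments mostly below shallower ones. S100b (chr10:75716598-75723904, plus strand, mm9), the gene of a calcium-binding protein that is also made by oligodendrocyte lineage cells, measured 135 FPKM in A, 54.1 and 93.2 in B1 and B2, 88.7 and 73.7 in C and D, and 49.0 and 83.4 in E and F. It was highest in A, as was Aldoc, but B2 exceeded B1 by 1.72-fold, the widest replicate difference among the 10. Their slopes were -0.11 ± 0.04 for Aldoc, -0.13 ± 0.09 for S100b and -0.10 ± 0.06 for Aldh1l1 (SE, limma adjusted p of the trend = 0.123, 0.257 and 0.327). That of S100b was -0.05 without A and -0.23 without F, and that of Aldh1l1 was -0.17 without A and -0.22 without F. After scaling to a common median gene, Aldoc and Aldh1l1 did pass the trend test in limma, with slopes of -0.21 and -0.21, and Aldoc also passed with GC correction.

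Sparcl1 (chr5:104508130-104542752, minus strand, mm9), which encodes a secreted matrix protein that promotes synapse formation, was the most abundant of the 10 genes. It measured 249.9 FPKM in A, 452 and 488 in B1 and B2, 561 and 573 in C and D, and 515 and 518 in E and F. As with Slc1a2, the level in A was lower than in every other library. Sparcl1 changed across segments with a slope of 0.15 ± 0.05 (SE, limma adjusted p of the trend = 0.0228), and the slope was 0.07 without A and 0.05 after scaling to a common median gene. The call was lost without A (limma adjusted p = 0.404), C (0.0632) or D (0.0576), and also after scaling to a common median gene (0.112), without mitochondrial genes (0.0515) and with GC correction (0.173).

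In all, 5 of the 10 genes passed the trend test, Gfap, Aqp4, Gja1, Gjb6 and Sparcl1, against 43.5% of all classifiable genes. The share of astrocyte genes called was therefore near the background. Among all genes 35.5% were called with a positive slope and 8.04% with a negative one, and the median slope of all genes was 0.09 against 0.07 for the 10. After scaling to a common median gene, 17.3% of genes were called with a positive slope and 15.6% with a negative one. The count of 5 fell to 2, Gfap and Aqp4, without A, C or D, and to 3 without B2. The share of all genes called also fell, to 10.1% without A, 28.9% without C, 30.7% without D and 36.9% without B2. After scaling to a common median gene the count was again 5, but with Aldoc and Aldh1l1 in place of Gja1 and Sparcl1. Of the 10 genes, 6 were lowest in A and 4 were highest in F, beside 56.0% and 31.9% of all classifiable genes. Only Gfap of the 10 had both A and F above every other library with intervals apart, a pattern held by 2.71% of classifiable genes.

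Differences between neighbouring segments were read against both the deposited intervals and the 95th percentile of the B1 to B2 difference (2.11-fold). Of 50 steps between neighbouring segments, 5 for each gene, 4 met both criteria, and 5.72% of such steps did so over all classifiable genes. These were the fall of Gfap from A to B, its rises from D to E and from E to F, and the rise of Gja1 from A to B. Between B1 and B2 themselves, the deposited intervals were apart for 8 of the 10 genes and 66.4% of all genes. The intervals, which cover counting and assignment error only, were thus narrower than the difference between these 2 libraries. B1 and B2 differed in litter and also in insert size (239 and 193 bases), and the parts of the 2 cannot be told apart. In the order of levels of Gfap, B and C did not differ beyond their intervals, and of the remaining steps those from F to A and from E to D exceeded the replicate spread.

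Gfap was next set against each other gene within the same library, a ratio that does not depend on how libraries are scaled. As a percent of Aqp4, Gfap stood at 695% in A, 39.3% in C and 455% in F. Relative to Gjb6 it stood at 326% in A, 21.6% in C and 1140.1% in F, and relative to Sparcl1 at 13.8% in A, 0.788% in C and 24.3% in F. Each of the 9 ratios was lowest in B or C, and all but that to Aqp4 were highest in F. Gfap made up 3.11% of the summed level of the 10 genes in A, 0.3004% in C and 8.20% in F, while the other 9 summed to 1071 FPKM in A and to between 1259 and 1466 elsewhere. The quadratic term was lower than that of Gfap for 9 of 9 genes, whether or not the variance was moderated across genes, but 99.5% of all genes (98.0% without moderation) had a lower one in the same limma test, so that the departure was that of Gfap from nearly all genes. The slope was lower than that of Gfap for 7 of 9, Aqp4 (limma adjusted p = 0.608) and Gja1 (0.0926) not passing, beside 75.9% of all genes with a lower slope. Every gene in this test shares the values of Gfap, so that limma assigned nearly the same error to all. Without moderation, 4 of 9 passed (Aldoc, Gjb6, S100b and Aldh1l1), beside 43.1% of all genes.

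**Figure D3:**
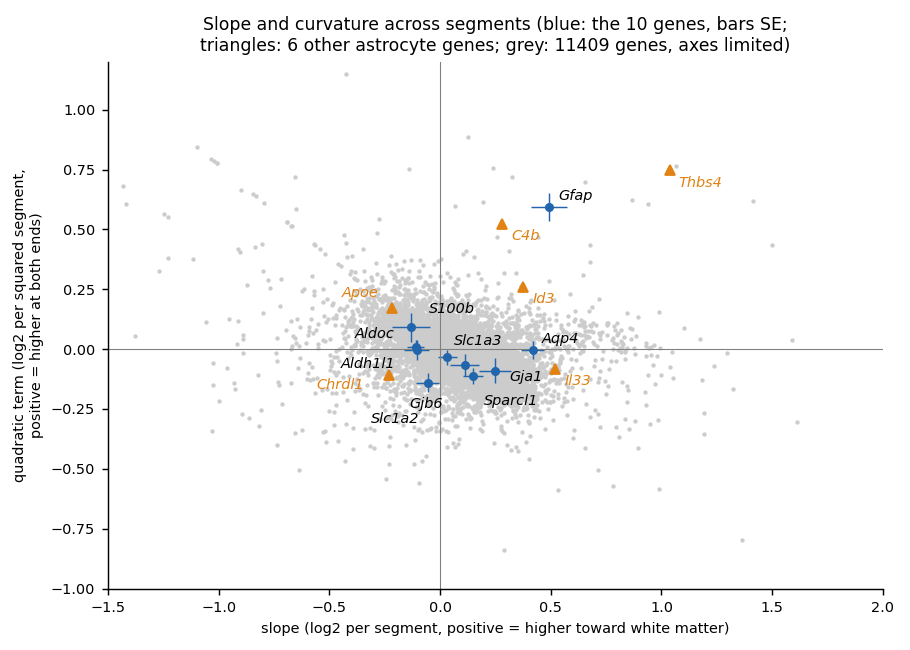
Slope (horizontal axis, log2 units per segment) and quadratic term (vertical axis, log2 units per squared segment) of log2(FPKM + 0.1) across segments. Blue points are the 10 astrocyte genes with bars of 1 SE, triangles are 6 further astrocyte genes and grey points are all 11409 classifiable genes. Gfap lies at 0.49 and 0.59, away from the other 9, whose quadratic terms lie between -0.14 and 0.09.

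The genes with levels most like those of Gfap over the 7 libraries, among 10144 classifiable genes averaging 1 FPKM or more, were Josd2 (Pearson r = 0.99), Hopx (0.98), Ppp2r5a (0.98), 1810037I17Rik (0.98) and Hebp1 (0.98). None of the other 9 astrocyte genes was among them. Josd2, which encodes a deubiquitinating enzyme, measured 52.5 FPKM in A, 28.4 to 44.4 in B1 to E and 89.2 in F, a far shallower span than that of Gfap. Hopx, a homeodomain gene expressed in astrocytes and radial glia, measured 16.7 FPKM in A, 11.9 to 17.5 in B1 to E and 26.3 in F. The closest genes to Aqp4 were Mmab and Rcbtb1, to Gja1 Kcnab1 and Edem1, and to Sparcl1 Zmat3 and Ifit2, all at r between 0.99 and 1.00. Those to Slc1a2 were Pde4b and Letmd1, to Slc1a3 Rcan2 and Ly6c2, to Gjb6 Tmem218 and Plcxd2, to Aldoc Shisa5 and Dnlz, to S100b Efemp2 and Plcd4, and to Aldh1l1 Gtpbp3 and Zfp768, at r of 0.95 to 0.99. These correlations describe likeness over 7 libraries only.

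Transcript models showed which isoforms carried these levels. Gfap, Slc1a2, Slc1a3, Gja1, Gjb6, S100b and Sparcl1 each had 1 Ensembl model carrying the level, so their gene and transcript values coincide. Aqp4 had 2 models, of which the shorter (ENSMUST00000079081) made up 77.0% to 94.6% of the gene and rose from 4.202 FPKM in A to 23.6 in F. The longer (ENSMUST00000115856) was 0.51 FPKM in B1, 2.58 in C, 3.76 in E and 4.14 in F. Its share of Aqp4 was 5.35% in B1, 23.0% in C and 22.1% in E, but its intervals in C, from 1.17 to 3.99 FPKM, and in E were wide.

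Aldoc was divided mainly between ENSMUST00000102478, at 72.0% of the gene in A and 83.9% in F, and ENSMUST00000017534, at 11.8% in A and 19.7% in C. ENSMUST00000017534 was lower in A (49.6 FPKM) than in C (69.2) while ENSMUST00000102478 was higher in A (303) than in C (283), with intervals apart for both. A 706-base model of Aldoc (ENSMUST00000156039) was listed at 68.2 FPKM in A only, and a 788-base model (ENSMUST00000128032) at 25.6 FPKM in E only. For Aldh1l1, a 400-base model (ENSMUST00000127199) was listed at 9.62 FPKM in B1 only, which was 30.2% of the gene there. The main model of Aldh1l1 (ENSMUST00000032175) measured 22.2 FPKM in B1 and 22.5 in B2, within each other's intervals, so that the higher gene level in B1 lay in the short model. Short models listed in 1 library may reflect how fragments were assigned, which was not tested. Of 11 classifiable transcripts of the 10 genes, those of Gfap, Aqp4 (ENSMUST00000079081) and Sparcl1 passed the trend test in limma, beside 33.2% of all classifiable transcripts.

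**Figure D4:**
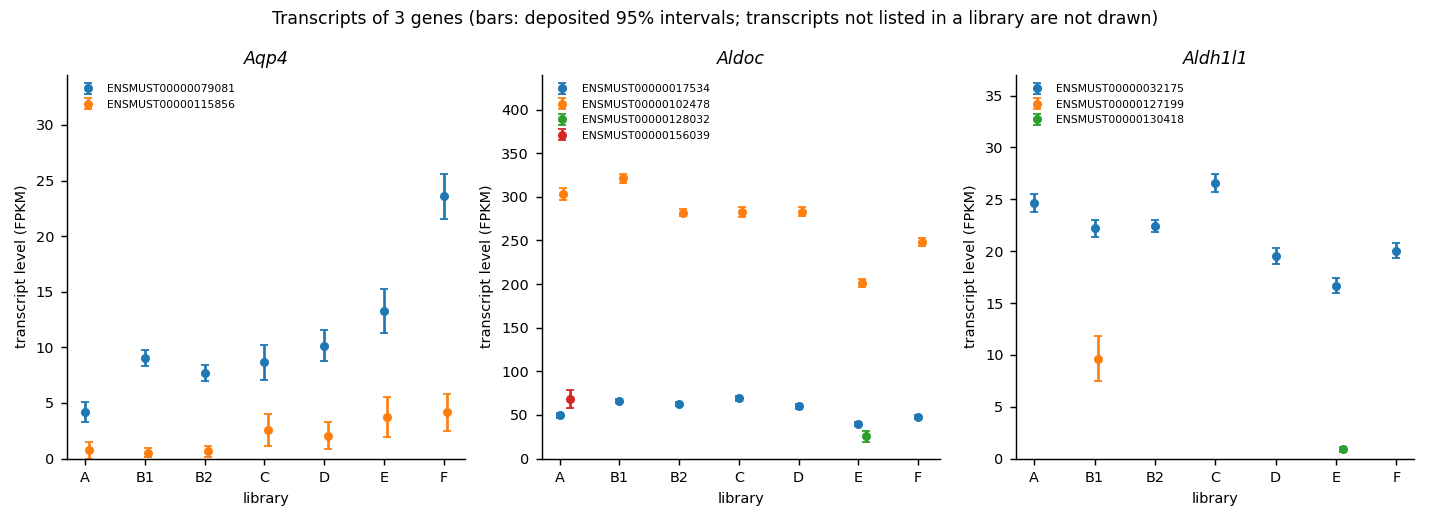
Transcript levels in FPKM (vertical axes) of Aqp4, Aldoc and Aldh1l1 by library (horizontal axes), with deposited 95% intervals as bars and colours for Ensembl models. The main model of Aldh1l1 sits at 22.2 in B1 and 22.5 in B2, and the 400-base model appears in B1 at 9.62.

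Markers of other cell types also varied along the segments. The 12 oligodendrocyte genes, led by Mbp, summed to 344 FPKM in A and 13002 in F. All 12 were highest in F, beside 31.9% of all classifiable genes. The oligodendrocyte sum fell into the order of depth, so it moved with Gfap from C to F and against it from A to C. The 6 genes of oligodendrocyte precursors and their lineage (Pdgfra, Cspg4, Gpr17, Olig1, Olig2 and Sox10) summed to 22.2 FPKM in A and 242 in F. Olig1 led this sum, at 12.5 FPKM in A and 133 in F, and Sox10 stood at 2.75 and 52.2. Pdgfra was lower, at 1.00 and 8.05, as was Cspg4, at 1.02 and 2.64. In limma 6 of 6 were called with a positive slope, beside 35.5% of all genes. The 9 neuronal genes, led by Snap25, summed to 1686 FPKM in A, 2810 and 2741 in B1 and B2, 3463 to 3605 in C to E and 2862 in F. Their sum was thus highest in C to E. In B1 and B2, where Gfap was also low, the sum lay below that in F. Of the 9, 6 had a negative quadratic term past the limma threshold, beside 8.98% of all genes. They did not all run alike, as Rbfox3 was highest in A (337 FPKM) and Slc17a7 in F (799 FPKM). Of 10 meningeal genes, 9 were highest in A. The share of all classifiable genes highest in A was not counted, whereas 56.0% were lowest there. The meningeal sum, over 10 genes of which 2 were classifiable, was 1780 FPKM in A, 80.9 to 140.4 in B1 to E and 282 in F. Most of it was Ptgds, a prostaglandin synthase gene, at 1733 FPKM in A and 270 in F. The other 9 summed to 47.3 FPKM in A and 6.38 to 12.6 elsewhere, so the higher sum in F was mostly that of Ptgds. The 6 ependymal genes, of which 2 were classifiable, summed to 11.96 FPKM in A, 4.92 to 6.18 in B1 to E and 10.02 in F. Different genes led this sum at the 2 ends. Rarres2 was 6.65 FPKM in A and 2.83 in F, and Foxj1 was 1.18 in A and 4.82 in F. Ccdc153 and Tmem212 were listed at 0 in B2 and the latter also in C and E. The 11 microglial genes ranged in sum from 101 FPKM in B2 to 191 in F, and the 8 endothelial genes from 62.9 in C to 90.2 in A. The part of these cells in the level of Gfap was not tested.

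**Figure D5:**
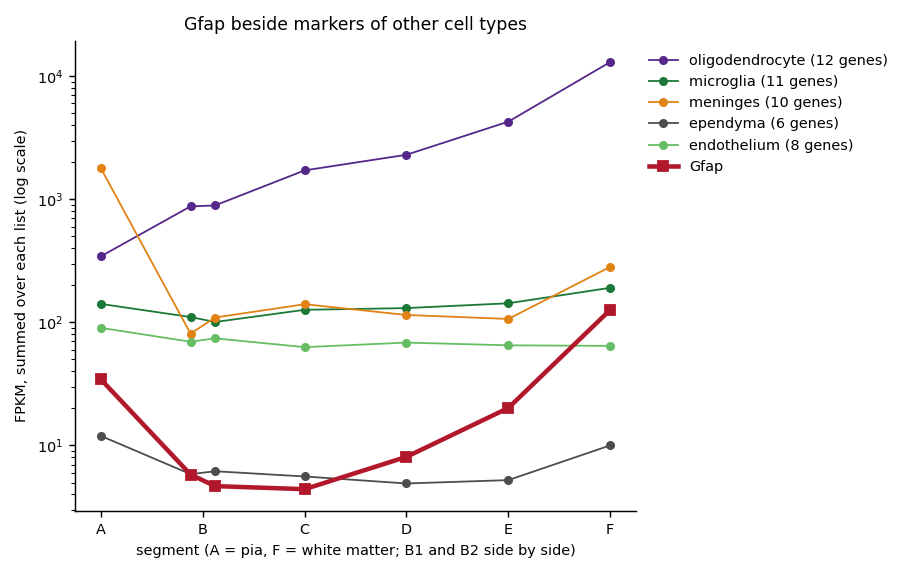
Level of Gfap (red squares) beside the summed FPKM of marker genes of 5 other cell types (vertical axis, log scale) in the 7 libraries from pia to white matter (horizontal axis). The oligodendrocyte sum climbs from 344 in A to 13002 in F, and the meningeal sum drops from 1780 in A to between 80.9 and 140.4 in B1 to E.

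A wider set of 87 further genes known from astrocytes, of which 69 were classifiable, was examined for the same patterns. With the trend test, 17 were called with a positive slope and 10 with a negative one, 39.1% in all beside 43.5% of all genes. A positive quadratic term past the threshold was found for 8 of 69, beside 2.0% of all genes. The wider set was written by hand with earlier results of these data known. The difference between these shares is therefore no independent evidence about astrocyte genes. These were Phgdh, Id4, Apoe, Clu, Thbs4, C4b, Id1 and Id3, singled out after their values were seen. Thbs4 lay below the added 0.1 FPKM in B1 to D, and no other constant was tried for this count. The count was 6 to 9 under other scalings, beside 1.55% to 2.83% of all genes, and 14 without B1, beside 5.96%. It was 1 without D and 4 without E, beside 0.00877% and 0.298% of all genes. It was 0 without A, B2, C or F, where 0 of all genes had such a term past the limma threshold. Phgdh, the first enzyme of serine synthesis from glucose, measured 4.81 FPKM in A, 0.586 to 1.56 in B1 to E and 4.38 in F. Id4, a transcriptional inhibitor, measured 27.2 FPKM in A, 8.96 to 15.3 in B1 to E and 28.3 in F. C4b, the complement component gene, measured 1.56 FPKM in A, 0.155 to 0.453 in B1 to E and 3.79 in F. Of the 8, 5 (Phgdh, Id4, Clu, C4b and Id1) had both A and F above every other library, as in Gfap. Apoe, Thbs4 and Id3 did not, with F below B1 in Apoe and A below E in Thbs4 and Id3. This pattern of values was held by 6.37% of all classifiable genes. The quadratic term by which the 8 were picked favours it, so the 2 shares cannot be compared. Of the other classifiable genes in the wider set, Glul, Mt1, Mt2, Ntsr2 and Cst3 also held it, without such a term past the threshold.

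Grouped by function, the 16 transport and endfoot genes had 3 called upward and 4 downward. A call upward or downward means that the trend passed with a positive or negative slope, whether or not the slope alone passed. Dtna, a dystrophin-associated scaffold gene, went from 10.4 FPKM in A to 32.4 in F, and Slc14a1, a urea transporter gene, from 0.604 to 3.25. Slc25a18, a mitochondrial glutamate carrier gene, went from 22.8 FPKM in A to 8.29 in F. Transport genes thus split in direction. Of 14 classifiable metabolic genes, 3 were called upward, Acsl3, Aldh6a1 and Phgdh, and 2 downward, Mt1 and Dio2. The slope of Phgdh alone did not pass (limma adjusted p = 0.381). Of 15 receptor and fate genes 4 were called upward, including Grm3 (9.02 FPKM in A and 39.4 in F) and Ednrb (3.75 and 14.4), and 0 downward. These counts are in limma and beside 35.5% called upward and 8.04% downward over all genes.

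The remaining lists held secreted proteins and genes associated with reactive, fibrous or layer-restricted astrocytes. Thbs4, a thrombospondin gene, measured 0.393 FPKM in A, 0.0335 to 0.0934 in B1 to D, 1.26 in E and 22.5 in F. Its levels in B1 to D lay below the 0.1 FPKM added before the fit. Its mean, against which the interval width was judged, came mostly from F. The slope of Thbs4, 1.04 ± 0.07 (SE), therefore rested largely on that constant and on F. Apoe, the main brain apolipoprotein, measured 1485 FPKM in A, fell to 424 in E and stood at 751 in F. Over all genes 35.5% were called upward and 8.04% downward in limma. Of 11 classifiable secreted-protein genes 2 were called upward and 3 downward. Of 8 classifiable fibrous and reactive genes 2 were called upward, C4b and Synm, and 1 downward, Nes. Vim, named as the filament partner of Gfap, was not classifiable but was listed at 21.6 FPKM in A, 4.21 to 7.004 in B1 to E and 17.7 in F. By values alone, 4 of the 16 fibrous and reactive genes had both A and F above every other library. These were Vim, C4b, Cd109 and Hspb1, of which only C4b was classifiable. Others ran differently, as S1pr3 was highest in B1 (3.28 FPKM, and 1.21 in F) and Serpina3n in D (7.33 FPKM). Of 6 classifiable layer-associated genes, Il33 (2.59 FPKM in A and 27.4 in F), Id3 (7.65 and 26.1) and Id1 (5.21 and 8.50) were called upward and Chrdl1 (1.93 and 1.08) downward, and Chrdl1 peaked at 3.18 FPKM in B2. Il33, a cytokine gene, and Id3, a transcriptional inhibitor, were highest in F, the segment with the highest Gfap, as were 31.9% of all classifiable genes.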

How the data were processed

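Polyadenylated RNA from 7 somatosensory cortex libraries was sequenced as paired ends (50 bases mapped, up to 75 in part of F). Per the labels, the authors aligned reads with TopHat 1.0.13 to mm9 and estimated levels against Ensembl models with Cufflinks 0.8.3. The deposited FPKM carry 95% intervals, and the deposited transcript tables also give a fraction of the most abundant isoform and a coverage per model. Tables of models assembled from the reads were not used. Cufflinks assigns fragments between models, so short models can take them, and strand was not marked. The files hold no counts. Fragment totals were estimated from FPKM and coverage, and intervals cover counting and assignment error only.

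Gene symbols were matched by Ensembl ID (22021 of 24130). The 10 genes and 13 gene lists were chosen with earlier results of these data known. All classifiable genes were fitted in limma 3.58.1 (R 4.3.3) on log2(FPKM + 0.1) against segment position and its square, the Benjamini-Hochberg threshold being 0.05, and the script was tested on simulated data. Neighbouring segments were compared by their deposited intervals and the B1 to B2 spread. The text names the 10 genes, for each list the classifiable genes with the 2 lowest and 2 highest slopes, the genes most correlated with each member (5 for Gfap, 2 for the others), and transcripts with at least 5% of a gene, and says where others are named; 1 gene that this rule names is not reported here. Other pseudocounts, filters, scalings, a GC correction, other model terms and each library left out were tried. Sums and figures used pandas 2.3.3 and numpy 2.4.6.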

Additional observations from a re-analysis of the deposited data

How the results depend on the processing

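The count of astrocyte genes passing the trend test was 5. It was 3 with a pseudocount of 0.01, with a minimum mean of 0.1 FPKM, with no filter and without mitochondrial genes. Under these settings 40.6%, 34.5%, 25.4% and 34.8% of all genes were called. Which genes were called changed with scaling: Gja1 and Sparcl1 gave way to Aldoc and Aldh1l1 with a common median gene (5) and to Aldoc with GC correction (4). The shares of all genes called were 33.0% and 27.5%. The count was 1 (Aqp4) with the straight-line term alone, beside 18.7% of all genes. With the 6 segments as separate groups, which left 1 library in each segment but B, no gene passed, astrocyte or other. Leaving out each library gave 2 to 5, beside 10.1% to 57.9% of all genes. The trend of Gfap held in every setting with a quadratic term, with a quadratic term of 0.44 to 0.67 when libraries were left out; the straight-line and separate-segment fits give no such term. The slope differed from that of Gfap for 7 of 9, for 0 with the straight-line term alone (0 also at an unadjusted limma p under 0.05), for 4 without moderation, chosen after seeing the data, and for 5 to 9 with libraries left out. In the same order, the shares of all genes were 76.6%, 0.096% (3.32% unadjusted), 43.3% and 53.4% to 97.0%. For transcripts, the count of 3 ranged from 1 to 4, beside 2.16% to 46.7% of all classifiable transcripts. For the further astrocyte genes with a positive quadratic term, the count of 8 ranged from 0 to 14, beside 0% to 5.96% of all genes, settings chosen after seeing the data. The slope of Slc1a3 reversed to -0.0701 with a common median gene, -0.0136 without mitochondrial genes and -0.129 with GC correction (limma adjusted p = 0.0354), and ran from -0.0507 to 0.0517 with libraries left out. That of Slc1a2 reversed to -0.0361 with GC correction and ran from -0.0471 to 0.141 with libraries left out, both genes reversing without A and without F. The cause was not tested. No paired analysis was possible because each segment other than B had 1 library. With the 6 segments as separate groups the fit has 1 residual degree of freedom, so changes that do not follow a smooth curve were tested with little power.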
